A study of Homo sapiens with 12 samples.

Results

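The cyclins and cyclin-dependent kinases (CDKs) that carry a cell from G1 into S phase and on to mitosis were examined in PC9, a lung adenocarcinoma line driven by mutant EGFR. The set was given by name and holds 10 of the 62754 genes in the deposited count table: CCND1, CCND2, CCND3, CCNE1, CCNE2, CCNA2, CCNB1, CDK2, CDK4 and CDK6. All 10 were found in the table through their Ensembl identifiers, and 9 had enough counts to be tested. RNA with poly(A) tails was sequenced from 12 libraries in 4 groups of 3 cultures. Untreated WT were TDP1 wild-type cells without drug, DTC (drug-tolerant cells) were TDP1 wild-type cells kept for 7 days in 1 µM erlotinib, and DTEC (drug-tolerant expanded cells) were TDP1 wild-type cells kept for 28 days at the same dose. KO were cells of 1 TDP1 knockout line, KO2, without drug. Erlotinib inhibits the EGFR kinase, and TDP1 is an enzyme that releases trapped topoisomerase I from DNA. All groups derive from a PC9 subclone, and the 3 cultures of a condition were parted from a shared flask and then grown separately, so the p-values describe the spread between such sister cultures. KO was sampled only without drug, and KO2 is the only knockout line in these data.

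D-type cyclins are made in response to growth factor signals and bind CDK4 and CDK6, which start the phosphorylation of the retinoblastoma protein and so free E2F transcription factors. E-type cyclins then activate CDK2 at the entry into S phase, cyclin A2 activates CDK2 during S phase and CDK1 later, and cyclin B1 activates CDK1 for mitosis. In cells with mutant EGFR the signal that keeps cyclin D1 made runs largely through EGFR and the MAP kinase cascade.

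Library totals lay between 25572691 and 38373679 estimated counts. The knockout label was checked through TDP1, which had 28.1, 25.1 and 25.8 CPM (counts scaled to a common library size, here with the TMM factors described below) in untreated WT and 10.1, 11.3 and 11 CPM in KO. The KO mean was 41% of that in untreated WT (adjusted p = 1.3e-05). A lower TDP1 total was not particular to KO. In wild-type DTC the mean was 53% of untreated WT (adjusted p = 3.56e-06 by the edgeR test described below), and in DTEC it was 101%. Gene totals do not show which part of TDP1 was altered. The epithelial genes EPCAM and KRT18 were abundant in all groups (means of 363 to 634 CPM and 1180 to 3080 CPM). Both were lower in DTC than in untreated WT (log2 fold changes -0.81 and -1.31, adjusted p = 6.07e-06 and 1.78e-07). The lung lineage gene NKX2-1 stayed at or below 0.442 CPM and NAPSA at or below 1.96 CPM in every library. By the edgeR test described below, 4 of the 7 epithelial and lung markers were lower in DTC. From their low levels, NKX2-1 and NAPSA were higher in DTC (3.42 and 3.67, adjusted p = 0.00276 and 2.62e-05). CDH1 did not pass an adjusted p of 0.05 there (0.06, adjusted p = 0.766). Over all tested genes 33.3% were lower and 34% higher in DTC. Of the markers of other cell types, 1 of 5 leukocyte genes (CD3E) and 2 of 5 fibroblast genes (COL1A2 and DCN) had 3 counts or fewer in every library. In the order untreated WT, DTC, DTEC and KO, the 7 summed epithelial and lung markers ran from 8860 to 9330, 4470 to 5020, 7480 to 9810 and 9540 to 10300 CPM. The summed leukocyte markers ran from 26.7 to 33.6, 37.3 to 54.2, 34.3 to 41.2 and 25.9 to 29.1 CPM in the same order. The summed endothelial markers ran from 58.5 to 61.4, 42.1 to 50.1, 122 to 142 and 75.8 to 77.2 CPM, and the summed fibroblast markers from 7.82 to 8.91, 54.4 to 57, 10.9 to 14.2 and 13.2 to 14.8 CPM. These sums mostly follow single genes. CD68 held most of the leukocyte sum (means of 29.8, 46.4, 37.3 and 27.5 CPM). COL1A1 held most of the fibroblast sum (8.3, 55.7, 12.4 and 13.8 CPM). The endothelial markers moved apart in DTC, where PECAM1 was at 27.4% of untreated WT and VWF rose from 0.122 to 1.57 CPM. CDH5 was at 126% there and was not called (adjusted p = 0.11 by edgeR). PECAM1 was at 287% of untreated WT in DTEC and 151% in KO (92.1 and 48.4 CPM), and it held most of the endothelial sum in both. The part of all these markers in the results below was not tested. DTC replicate 1 stood farthest from its group: the chi-square per gene against DTC replicates 2 and 3 was 116 and 72.1, compared with 17.1 between replicates 2 and 3. Without that library 1 member was higher and 5 were lower in DTC than in untreated WT, the same numbers as with it, and its effect on CDK6 is given with that gene.

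The promoters of 4 members called lower in both DTC and DTEC are shown first. Letters of the motifs marked below occur in those of CCNA2, CCNB1 and CCNE1 and not in that of CDK4. Promoter windows of 300 bases (250 before and 50 after a RefSeq transcription start, build GRCh38.p14) were found for 6 of the 10 members, CCND3, CCNE1, CCNA2, CCNB1, CDK4 and CDK6, 9 windows in all. The windows below were at chr4:121823834-121824133 for CCNA2 (minus strand), chr5:69166900-69167199 for CCNB1 (plus strand), chr19:29811741-29812040 for CCNE1 (plus strand) and chr12:57752261-57752560 for CDK4 (minus strand), each written 5′ to 3′ along its gene. Capitals mark a cell cycle homology region (CHR, the element through which repressor and activator complexes time late cell cycle genes), a CCAAT box on either strand, or a cyclic AMP response element (CRE).
CCNA2: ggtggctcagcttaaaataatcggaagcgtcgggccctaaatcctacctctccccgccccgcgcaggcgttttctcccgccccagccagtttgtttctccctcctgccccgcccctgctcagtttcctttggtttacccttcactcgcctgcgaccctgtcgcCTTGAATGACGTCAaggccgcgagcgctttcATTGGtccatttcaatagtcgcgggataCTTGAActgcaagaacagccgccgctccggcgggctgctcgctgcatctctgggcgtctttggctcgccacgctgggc
CCNB1: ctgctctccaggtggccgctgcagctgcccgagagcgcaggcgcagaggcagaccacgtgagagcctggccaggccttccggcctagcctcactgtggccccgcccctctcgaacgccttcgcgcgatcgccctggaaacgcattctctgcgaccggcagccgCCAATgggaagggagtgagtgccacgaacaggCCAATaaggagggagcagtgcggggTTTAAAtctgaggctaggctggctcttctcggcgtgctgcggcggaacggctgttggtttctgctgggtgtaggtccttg
CCNE1: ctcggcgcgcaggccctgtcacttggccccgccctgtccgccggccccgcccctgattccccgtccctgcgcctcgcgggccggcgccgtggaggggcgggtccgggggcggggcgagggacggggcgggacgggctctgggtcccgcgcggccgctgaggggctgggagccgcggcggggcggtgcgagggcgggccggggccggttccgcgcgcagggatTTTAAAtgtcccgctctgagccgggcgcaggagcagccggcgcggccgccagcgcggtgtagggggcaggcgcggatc
CDK4: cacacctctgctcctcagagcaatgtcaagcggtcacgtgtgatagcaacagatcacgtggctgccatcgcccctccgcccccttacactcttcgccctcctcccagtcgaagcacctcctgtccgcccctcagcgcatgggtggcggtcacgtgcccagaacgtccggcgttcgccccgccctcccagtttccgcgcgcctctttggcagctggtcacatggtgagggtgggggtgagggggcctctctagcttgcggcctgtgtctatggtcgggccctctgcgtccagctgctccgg

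The search was for exact letters on both strands. CHR was TTTGAA or TTCGAA or TTTAAA or CTTGAA, the CCAAT box was CCAAT, CRE was TGACGTCA, an E2F site was TTTGGCGC or TTTCCCGC or TTTCGCGC or TTTGCCGC, a GC box was GGGCGG, an AP-1 site was TGACTCA or TGAGTCA, and an E box was CACGTG. The window of CCNA2 held CHR letters (CTTGAA) at bases -87 to -82 and again at -28 to -23 before the start, a CRE at -81 to -74 that directly follows the first of them, a CCAAT box on the opposite strand at -56 to -52, and 3 GC boxes. CCNB1 held CHR letters (TTTAAA) at -30 to -25 and CCAAT boxes at -87 to -83 and -55 to -51, with 1 GC box and 1 E box. CCNE1 held TTTAAA at -28 to -23 and 7 GC boxes, and CDK4 held 3 E boxes and 3 GC boxes with neither CHR nor CCAAT letters. Of the windows not printed, the 3 of CCND3 held 5, 4 and 0 GC boxes and 0, 1 and 1 CCAAT boxes, and those of CDK6 held 3 GC boxes and 1 E box in the first and no match in the second. None of these 5 held CHR letters, and no window of any member held an E2F or AP-1 match. Among 35116 promoter windows of the same length, 32.2% held CHR letters, 34.6% a CCAAT box, 12.4% both, 1.85% a CRE, 45% a GC box, 7.26% an E box, 3.31% an E2F site and 4.95% an AP-1 site. The plot of motif positions shows the layout of the 4 windows. A match is a run of letters and not a measured binding site, and a window without a match says nothing about the factor.

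**Figure D1:**
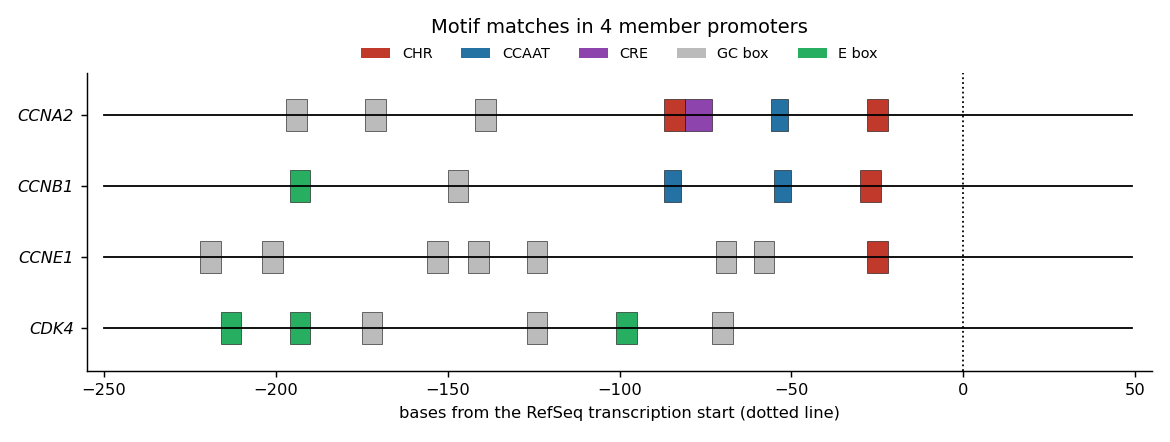
Motif matches (coloured boxes) along the promoter windows of CCNA2, CCNB1, CCNE1 and CDK4, in bases from the RefSeq transcription start (dotted line at 0). CCNA2 and CCNB1 have CHR and CCAAT letters within about 90 bases of the start, CCNE1 has CHR letters and 7 GC boxes, and CDK4 has E boxes and GC boxes.

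After 7 days of erlotinib, the cyclins of S phase and mitosis and the D1-CDK4 pair were low, and cyclin E2 was the member that moved the other way. CCNA2 was at 25% of its mean in untreated WT, CCNB1 at 25.5%, CCND1 at 35.1%, CDK4 at 39.7% and CCNE1 at 39.8%, while CCNE2 was at 174%. By edgeR's quasi-likelihood test, with p-values adjusted over all 17115 tested genes and a call at an adjusted p under 0.05, 1 of the 9 tested members was higher, 5 were lower and 3 (CCND3, CDK2 and CDK6) were not called. This comparison changed most of the transcriptome: 67.3% of all tested genes were called, 34% higher and 33.3% lower, so a single call is close to what an average gene shows. The 5 lower members are 55.6% of those tested. The median log2 fold change was -1.33 over the 9 members and 0.0551 over all tested genes.

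After 28 days the same comparison with untreated WT had 0 members higher and 7 lower, with CDK2 and CDK6 not called. The 7 are 77.8% of the tested members, beside 26.3% of all tested genes called lower, 26% called higher and 52.3% called in either direction. The count of 0 higher was also 0 at an unadjusted p under 0.05 and by DESeq2. Of all 17115 tested genes, 4952 were higher at that unadjusted p. CCNA2 was at 36.1% of untreated WT, CCNE1 at 42.1%, CCNB1 at 42.9%, CCNE2 at 59.4%, CCND1 at 61.4%, CCND3 at 67.8% and CDK4 at 71.7%. The median log2 fold change was -0.70 over the members and 0.0179 over all tested genes. DTC and DTEC were both set against the same untreated WT libraries, so their values are given side by side.

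Between the drug-treated groups, 4 members were higher in DTEC than in DTC (CCND1, CCNA2, CCNB1 and CDK4) and 2 were lower (CCND3 and CCNE2), against a background of 55.4% of tested genes called, 28.8% higher and 26.6% lower. The shares of the tested members were 44.4% and 22.2%. CCNE1, CDK2 and CDK6 were not called. The median was 0.08 over the members and -0.0084 over all tested genes. The libraries are bulk RNA, in which fewer cells of a type and less RNA per cell cannot be told apart.

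All fold changes depend on how the libraries are scaled to each other. Scaling by total counts alone, in place of the trimmed mean of M-values (TMM), moved the median of all genes by 0.355 in DTC, 0.168 in DTEC and -0.187 in DTEC against DTC on the log2 scale, and upper quartile scaling moved it by 0.288, 0.114 and -0.175. With total counts alone 8008 genes were higher and 3702 lower in DTC (5818 and 5702 with TMM), 5748 and 3269 in DTEC (4449 and 4506), 3555 and 5951 in DTEC against DTC (4923 and 4557), and 676 and 182 in KO (473 and 265). With upper quartile scaling the numbers were 7566 and 4080, 5263 and 3637, and 3683 and 5840 in the first 3 comparisons. Every call of a member named above held under these scalings, and the members whose direction or call changed are named with their values.

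**Figure D2:**
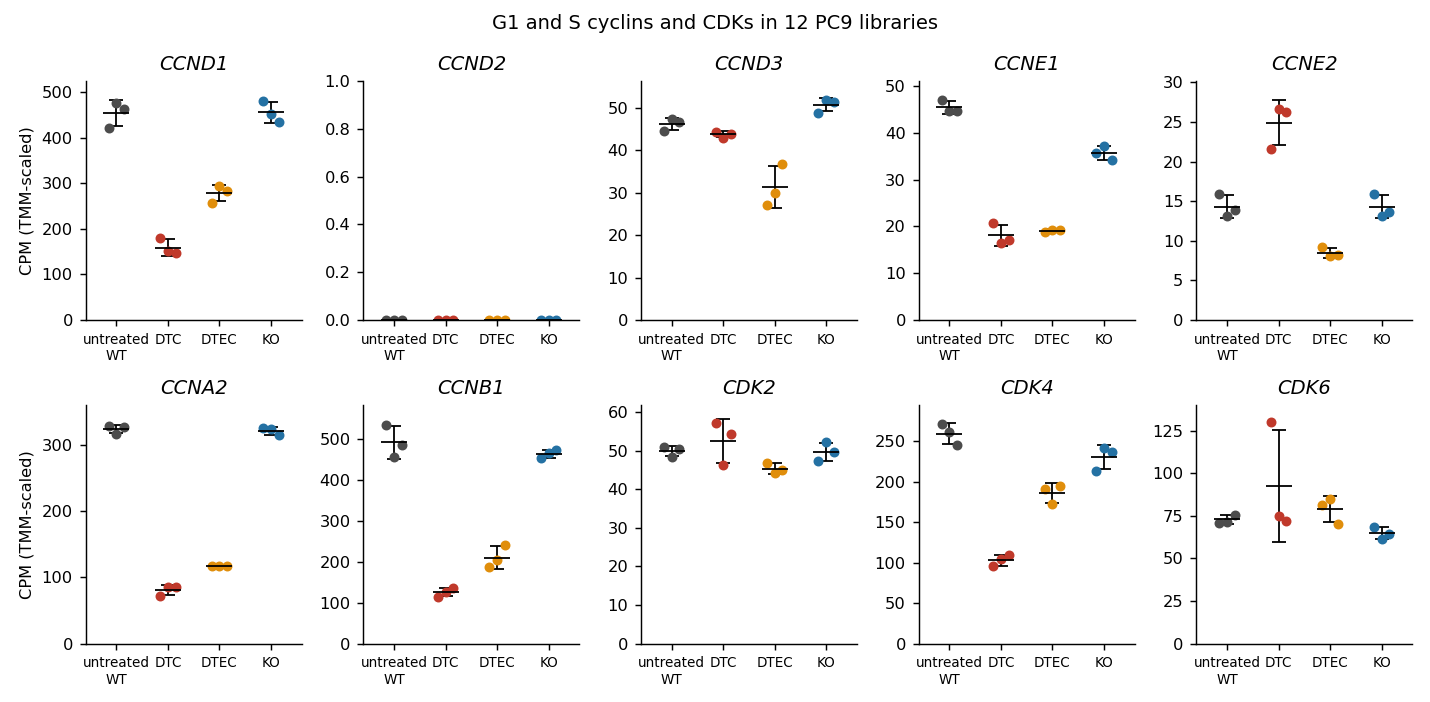
Level of each member in TMM-scaled CPM (vertical axis, from 0) in the 12 libraries, 1 point per library, with the mean and SD of each group of 3. CCND1, CCNE1, CCNA2, CCNB1 and CDK4 lie lower in DTC and DTEC than in untreated WT, CCNE2 is highest in DTC, CDK6 has 1 high library in DTC, and CCND2 is at 0 throughout.

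CCND1 (ENSG00000110092, chromosome 11, 69641087 to 69654474, GRCh38) encodes cyclin D1, the D-type cyclin most closely tied to growth factor signalling. It was at 421, 476 and 464 CPM in untreated WT, 180, 151 and 147 in DTC, 258, 294 and 283 in DTEC, and 480, 453 and 435 in KO. The 3 groups without overlap were DTC at the bottom, DTEC between, and untreated WT together with KO at the top. The log2 fold change was -1.51 (SE 0.106, adjusted p = 1.83e-08) in DTC and -0.70 (SE 0.104, adjusted p = 6.23e-05) in DTEC. DTEC was higher than DTC by 0.81 (SE 0.104, adjusted p = 1.73e-05), a 1.75-fold difference in the means.

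CCND3 (ENSG00000112576, chromosome 6, 41934933 to 42050357) encodes cyclin D3, which can stand in for cyclin D1 in binding CDK4 and CDK6. It was at 44.6, 47.5 and 46.7 CPM in untreated WT, 44.3, 43.0 and 44.0 in DTC, and 27.1, 30.0 and 36.9 in DTEC. DTC lay just below untreated WT and all 3 DTEC libraries lay below both. The change in DTC was -0.08 (95% interval -0.308 to 0.149, adjusted p = 0.526), which became 0.276 (adjusted p = 0.0329) with total counts alone and 0.209 (adjusted p = 0.0951) with upper quartile scaling. Relative to the median of all genes it was -0.134 under all of these scalings. In DTEC the change was -0.56 (SE 0.107, adjusted p = 0.000568), and DTEC against DTC was -0.48 (SE 0.107, adjusted p = 0.00169), while CCND1 went up between the same 2 groups.

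CCND2 (ENSG00000118971, chromosome 12, 4273772 to 4305350), the third D-type cyclin gene, was listed at 0 counts in all 12 libraries and was not tested. A limit of 3 counts corresponds to 0.0782 to 0.117 CPM in these libraries, for counting error only. The locus is shared in the annotation with the protein-coding gene ENSG00000285901 on the same strand, which held 0.0 to 276.01 estimated counts per library, with decimals. How the counting divided reads between these overlapping genes cannot be told from gene totals, so the 0 of CCND2 is a listed value and not a measured absence. The antisense gene CCND2-AS1 was also listed at 0.0 in every library.

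CDK4 (ENSG00000135446, chromosome 12, 57747727 to 57756013) encodes the main kinase partner of cyclin D1. It was at 271, 261 and 245 CPM in untreated WT, 95.4, 104 and 109 in DTC, and 191, 172 and 195 in DTEC. The groups did not overlap, with DTC lowest and DTEC between. The log2 fold change was -1.33 (SE 0.0964, adjusted p = 2.57e-08) in DTC and -0.48 (SE 0.0948, adjusted p = 0.00072) in DTEC, and DTEC was higher than DTC by 0.85 (SE 0.0956, adjusted p = 4.69e-06). CDK4 overlaps TSPAN31 and MARCHF9 on the opposite strand, and only 5 of its 12 estimated counts were exactly whole (tolerance 0, values deposited with up to 2 decimals), whereas all 12 were whole for each other member. TSPAN31 moved the other way, from 9.56 ± 0.313 CPM (SD, n = 3) in untreated WT to 33.1 ± 5.57 in DTC and 28.2 ± 1.11 in DTEC. Whether strand was used in the counting is not given in the sources used here, and a share of reads passed between these overlapping genes was not tested.

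CDK6 (ENSG00000105810, chromosome 7, 92604921 to 92836594) encodes the second kinase of D-type cyclins. It was at 71.1, 71.7 and 75.8 CPM in untreated WT, 130, 75.1 and 71.9 in DTC, 81.4, 84.8 and 70.5 in DTEC, and 68.5, 61.5 and 64.4 in KO. Only DTC replicate 1 was far from the rest, and DTC replicates 2 and 3 lay in or next to the range of untreated WT. The change in DTC was 0.34 (95% interval -0.0406 to 0.725, adjusted p = 0.104). It was 0.0484 (adjusted p = 0.637) without DTC replicate 1, 0.534 (adjusted p = 0.0206) without replicate 2 and 0.543 (adjusted p = 0.0176) without replicate 3, so 1 library decides this value. It was also called with total counts alone (0.696, adjusted p = 0.00332), with upper quartile scaling (0.625, adjusted p = 0.00515) and with no filter on low counts (0.343, adjusted p = 0.0255). In DTEC the change was 0.11 (95% interval -0.269 to 0.497, adjusted p = 0.615). Of the G1 kinases, CDK4 was therefore called lower at both times and CDK6 at neither; the difference between the 2 genes was not tested.

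CCNE1 (ENSG00000105173, chromosome 19, 29811898 to 29824308) encodes cyclin E1, which activates CDK2 at the G1 to S transition. It was at 47.1, 44.6 and 44.7 CPM in untreated WT, 20.8, 16.5 and 17.1 in DTC, and 18.8, 19.3 and 19.3 in DTEC. Both treated groups lay far below untreated WT and overlapped with each other. The log2 fold change was -1.33 (SE 0.102, adjusted p = 4.53e-08) in DTC and -1.25 (SE 0.102, adjusted p = 2.72e-07) in DTEC. The difference between DTEC and DTC was 0.08 (95% interval -0.139 to 0.298, adjusted p = 0.53). The sign of that difference was reversed with total counts alone (-0.107), with upper quartile scaling (-0.0926) and without DTC replicate 2 (-0.0247).

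CCNE2 (ENSG00000175305, chromosome 8, 94879770 to 94896678) encodes cyclin E2, the second activator of CDK2 in this family. It was at 15.9, 13.1 and 13.9 CPM in untreated WT, 21.6, 26.7 and 26.3 in DTC, and 9.26, 8.06 and 8.19 in DTEC. The DTC libraries were all the highest and the DTEC libraries all the lowest of the 4 groups. CCNE2 rose in DTC by 0.80 (SE 0.123, adjusted p = 4.87e-05) and fell in DTEC by 0.75 on the log2 scale (SE 0.127, adjusted p = 0.000199). DTEC against DTC was -1.55 (SE 0.127, adjusted p = 2.32e-07), a ratio of means of 0.342 and the widest change of any member between the treated groups.

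CDK2 (ENSG00000123374, chromosome 12, 55966769 to 55972784) encodes the kinase that cyclins E and A activate. It was at 51.0, 48.4 and 50.4 CPM in untreated WT, 57.2, 46.2 and 54.2 in DTC, and 46.9, 44.1 and 45 in DTEC. The treated groups stayed near untreated WT, although all 3 DTEC libraries lay below it. The change was 0.07 in DTC (95% interval -0.133 to 0.278, adjusted p = 0.517) and -0.14 in DTEC (95% interval -0.345 to 0.0666, adjusted p = 0.24). DTEC against DTC was -0.21 (95% interval -0.417 to -0.00616, adjusted p = 0.0749). CDK2 was called higher in DTC with total counts alone (0.428, adjusted p = 0.00111) and upper quartile scaling (0.36, adjusted p = 0.00273). Relative to the median of all genes its change in DTC was 0.018 in the TMM fit and under total counts alone. DTEC against DTC was called with total counts alone (-0.399, adjusted p = 0.00272), with upper quartile scaling (-0.385, adjusted p = 0.00248), with a minimum mean of 10 counts (-0.258, adjusted p = 0.0418), with DESeq2 (-0.239, adjusted p = 0.0393) and without DTC replicate 2 (-0.338, adjusted p = 0.00838).

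CCNA2 (ENSG00000145386, chromosome 4, 121816444 to 121823933) encodes cyclin A2, needed in S phase and G2, and its promoter is the first of those printed above. It was at 328, 316 and 327 CPM in untreated WT, 71.8, 85.3 and 86.1 in DTC, and 117 in each of the 3 DTEC libraries. The groups did not overlap. The log2 fold change was -2.00 (SE 0.0927, adjusted p = 4.59e-10) in DTC and -1.47 (SE 0.0911, adjusted p = 2.76e-08) in DTEC. DTEC was higher than DTC by 0.53 (SE 0.0900, adjusted p = 0.000204).

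CCNB1 (ENSG00000134057, chromosome 5, 69167010 to 69178245) encodes cyclin B1, which activates CDK1 at the entry into mitosis and serves here as the member that acts latest in the cycle. It was at 536, 457 and 486 CPM in untreated WT, 115, 126 and 136 in DTC, and 189, 204 and 242 in DTEC. As for CCNA2, DTC was lowest, DTEC between and untreated WT highest, without overlap. The log2 fold change was -1.97 (SE 0.113, adjusted p = 2.98e-09) in DTC and -1.22 (SE 0.111, adjusted p = 7.27e-07) in DTEC, and DTEC was higher than DTC by 0.75 (SE 0.110, adjusted p = 5.5e-05).

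**Figure D3:**
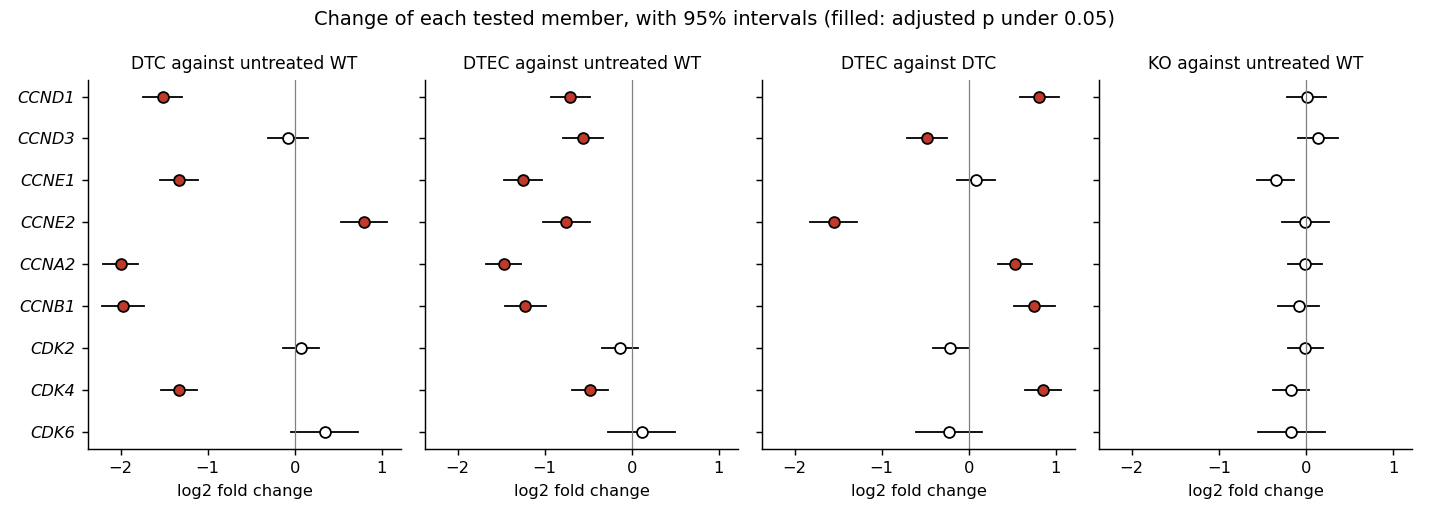
Log2 fold change of each of the 9 tested members (horizontal axis) in 4 comparisons, with 95% intervals from the edgeR fit and filled points where the adjusted p was under 0.05. Of the filled points in DTC, 5 lie left of 0 and that of CCNE2 right of it, in DTEC all 7 filled points lie left, and in KO no point is filled.

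Scaled to exon length, the members covered a wide range in untreated WT. CCNB1 was highest at 193 ± 15.6 CPM per kb of exon (SD, n = 3), then CCNA2 at 116 ± 2.29, CCND1 at 93.9 ± 5.93, CDK4 at 81.9 ± 4.14, CCNE1 at 17.8 ± 0.556, CDK2 at 12.8 ± 0.341, CCND3 at 7.97 ± 0.254, CDK6 at 5.94 ± 0.206 and CCNE2 at 3.25 ± 0.325, with CCND2 at 0.0. No neighbours in that order overlapped between their 3 libraries. In DTC the range narrowed and the order changed. CCNB1 was at 49.1 ± 3.97 CPM per kb, CCND1 at 33.0 ± 3.76, CDK4 at 32.5 ± 2.24, CCNA2 at 29 ± 2.87, CDK2 at 13.5 ± 1.47, CCND3 at 7.55 ± 0.12, CDK6 at 7.54 ± 2.67, CCNE1 at 7.11 ± 0.911 and CCNE2 at 5.66 ± 0.647. There CCND1, CDK4 and CCNA2 overlapped with one another, as did CCND3, CDK6 and CCNE1. CDK6 also overlapped with CCNE2 in DTC (5.87 to 10.6 against 4.91 to 6.08 CPM per kb). In DTEC CCNB1 was at 82.6 ± 10.7, CDK4 at 58.7 ± 3.85, CCND1 at 57.7 ± 3.83, CCNA2 at 41.8 ± 0.0994, CDK2 at 11.6 ± 0.359, CCNE1 at 7.5 ± 0.107, CDK6 at 6.43 ± 0.612, CCND3 at 5.4 ± 0.87 and CCNE2 at 1.93 ± 0.149 CPM per kb. CDK4 and CCND1 overlapped there, and so did CDK6 and CCND3.

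These shifts changed which member of a pair made up the length-scaled total. CCND3 was 8.10%, 7.67% and 7.73% of the summed D cyclins in the untreated WT libraries, 17.0%, 19.2% and 20% in DTC and 8.04%, 7.82% and 9.80% in DTEC. The DTC share stood above all other libraries, while the summed D cyclins fell from 102 ± 6.19 CPM per kb to 40.5 ± 3.83 in DTC and were 63.1 ± 4.32 in DTEC. CCNE2 was 15.4% ± 0.9 of the summed E cyclins in untreated WT, 44.4% ± 5.92 in DTC and 20.5% ± 1.49 in DTEC. The summed E cyclins were 21.1 ± 0.876, 12.8 ± 0.266 and 9.44 ± 0.0445 CPM per kb in these groups, so the E cyclin total was lowest at 28 days whereas the D cyclin total was lowest at 7 days. CDK6 was 6.79% ± 0.541 of CDK4 plus CDK6 in untreated WT, 26.1%, 15.7% and 14.5% in the DTC libraries and 9.92% ± 1.38 in DTEC. The levels and shares depend on the length used. With the longest coding transcript CDK4 (125 ± 6.31 CPM per kb) stood above CCNA2 (116 ± 2.29) and CCND1 (105 ± 6.65) in untreated WT, and CCND3 was at 19.3 ± 0.616. CDK4 then lay clear of CCND1 and CCNA2 in DTC (46.0 to 52.7 against 34.1 to 41.8 and 25.7 to 30.8 CPM per kb) and clear of CCND1 in DTEC (82.9 to 93.9 against 60 to 68.4). CCND3 lay clear of CDK6 and CCNE1 in DTC (18.0 to 18.5 against 6.19 to 11.2 and 8.08 to 10.2). On that length CCND3 was 15.5% of the D cyclins in untreated WT, 33.2% in DTC and 16.8% in DTEC. No test was made of the shares.

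**Figure D4:**
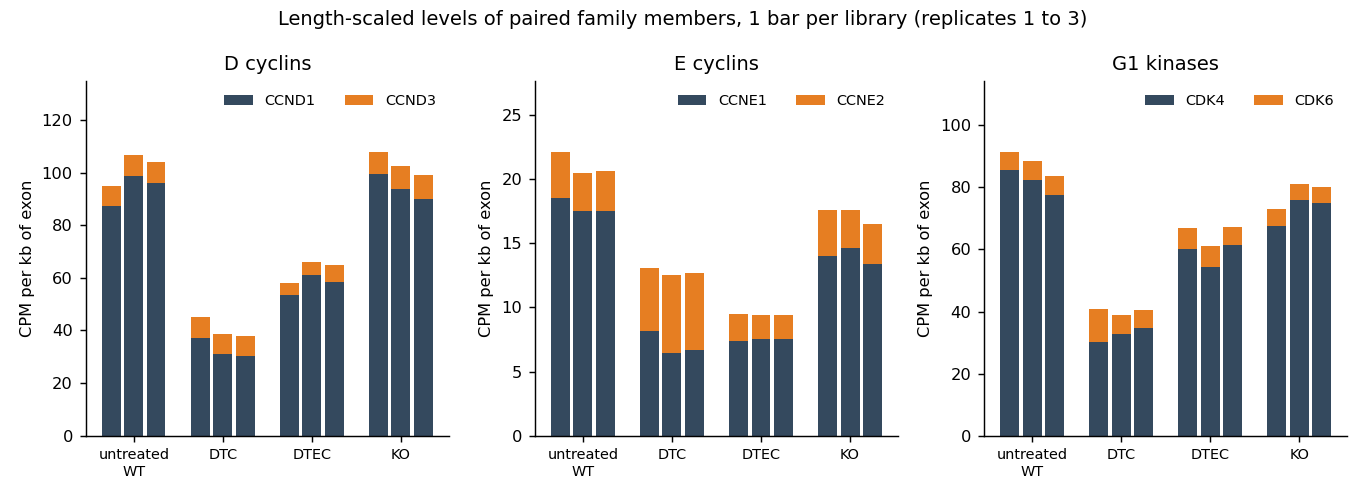
Length-scaled levels (CPM per kb of exon, from 0) of the D cyclins, E cyclins and G1 kinases, 1 stacked bar per library. CCND1 and CDK4 make up most of their bars in every library, and CCNE2 reaches 37.6% to 48.4% of the E cyclin bar in the DTC libraries.

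Other genes of the cell cycle were counted in 7 lists written from general knowledge, with 85 genes in all. Their counts are read beside those over all tested genes. Of these, 34% were higher and 33.3% lower in DTC, 26% and 26.3% in DTEC, and 28.8% and 26.6% in DTEC against DTC. At an unadjusted p under 0.05, 6094 of all 17115 tested genes were higher and 5918 lower in DTC. The numbers were 4952 and 4951 in DTEC, and 5291 and 5012 in DTEC against DTC. Every tested gene of S phase entry (15 of 15, replication licensing and nucleotide synthesis genes) and of the mitotic list (10 of 10) was lower in DTC, with medians of -1.33 and -1.87, and none was higher at an unadjusted p under 0.05 or by DESeq2. ORC1, a subunit of the origin recognition complex, fell from 65.4 ± 1.49 CPM (SD, n = 3) to 15.9 ± 3.20, and MCM7, a subunit of the replicative helicase, from 471 ± 16.2 to 121 ± 12.7. PLK1, a mitotic kinase, fell from 325 ± 25.5 to 31.7 ± 3.84 CPM, and AURKA, a kinase of the spindle poles, from 195 ± 15.4 to 36.9 ± 0.795. In DTEC the same 15 and 10 genes were again all lower than in untreated WT, with medians of -0.90 and -1.09, and DESeq2 called 14 and 10 of them. RRM2, a subunit of ribonucleotide reductase, was at 122 ± 3.78 against 383 ± 8.06 CPM, TYMS, which makes thymidylate, at 38.5 ± 4.18 against 106 ± 3.92, and MYBL2, a transcription factor of late cell cycle genes, at 137 ± 22 against 434 ± 10.1. Between DTC and DTEC, 8 mitotic genes were higher and 1 lower in DTEC (CDK1, the partner of cyclin B1, at 112 against 163 CPM), and 7 S phase genes were higher and 2 lower (RRM2 and TYMS). TOP2A, a mitotic topoisomerase, rose from 139 ± 32.0 to 443 ± 31.5 CPM, and MCM5 from 65.6 ± 3.58 to 130 ± 30.3.

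Of the 7 CDK inhibitors, 4 were higher and 0 lower in DTC (median 0.70), with 5 higher and 0 lower by DESeq2 or at an unadjusted p under 0.05. In DTEC 2 were higher and 2 lower (median 0.16). Between DTC and DTEC, 0 were higher in DTEC, by edgeR, by DESeq2 and at an unadjusted p under 0.05, and 3 were lower (CDKN1A, CDKN2B and CDKN2C). CDKN2B, which encodes p15, an inhibitor of CDK4 and CDK6, was at 8.36, 9.54 and 9.69 CPM in untreated WT, 140, 136 and 131 in DTC, and 76.7, 79.3 and 67.9 in DTEC. It stayed far above untreated WT at both times (log2 fold changes 3.89 and 3.02, adjusted p = 1.05e-11 and 2.02e-10). CDKN1A, which encodes p21, an inhibitor of CDK2 complexes, was at 8.78, 10.2 and 9.83 CPM in untreated WT, 57.3, 56.7 and 61.0 in DTC, and 6.46, 5.42 and 5.19 in DTEC. It rose by 2.60 in DTC (SE 0.113, adjusted p = 2.71e-10) and fell by 3.36 on the log2 scale from DTC to DTEC (SE 0.118, adjusted p = 9.53e-11), ending below untreated WT (-0.75, adjusted p = 8.61e-05). The other DTC calls were CDKN2C (p18), at 3.39 against 2.09 CPM, and CDKN1C (p57), which had only 0.319 ± 0.183 against 0.0533 ± 0.0415 CPM. In DTEC CDKN1B (p27) was higher (38.8 ± 1.06 against 30.1 ± 2.01 CPM, adjusted p = 0.00878), and CDKN2D (p19) was lower at 1.5 against 2.44 CPM.

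Of the 13 pocket proteins and E2F factors, 1 was higher and 9 lower in DTC (median -0.92), and 2 were higher and 10 lower in DTEC (median -0.68). The higher gene at both times was RBL2, which encodes p130, the pocket protein of resting cells. It was at 25.9, 25.7 and 27.2 CPM in untreated WT, 72.4, 60.6 and 57.8 in DTC, and 101, 97.1 and 81.8 in DTEC. RBL2 therefore increased at 7 days and again at 28 days (DTEC against DTC 0.55, adjusted p = 0.000618). TFDP2, an E2F partner, was the other gene raised in DTEC, at 36.9 against 22.6 CPM. E2F4, a mainly repressive E2F, fell from 178 ± 4.92 to 55.9 ± 4.36 CPM in DTC and was at 111 ± 9.55 in DTEC. E2F5 fell from 27.2 ± 2.55 to 9.25 ± 0.328 CPM in DTC and was at 21.7 ± 2.96 in DTEC, and E2F8, an atypical repressor, was at 29.8 ± 2.21 CPM in DTEC against 61.8 ± 3.13. Between DTC and DTEC 7 of this list were higher and 0 lower by edgeR (1 lower at an unadjusted p under 0.05 and 1 by DESeq2).

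Among 10 CDK activators and subunits of the CDK-activating kinase, 0 were higher and 6 lower in DTC, and 0 were higher and 7 lower in DTEC. CDC25A, a phosphatase that activates CDK2, fell from 28.9 ± 0.851 CPM to 9.74 ± 3.04 in DTC and 8.0 ± 0.523 in DTEC. PKMYT1, which this list holds although it restrains CDK1, was at 49.4 ± 9.84, 17.7 ± 5.20 and 13.9 ± 5.33 CPM. None of this list was higher than in untreated WT at an unadjusted p under 0.05 or by DESeq2, at either time. Between DTC and DTEC, 3 were higher in DTEC and 2 lower, by edgeR and by DESeq2. The higher ones were CDC25C, a phosphatase that activates CDK1 (10.8 ± 0.754 CPM in DTC and 17.3 ± 1.75 in DTEC), CDC25B and WEE1, a kinase that restrains CDK1. The lower ones were MNAT1, a subunit of the CDK-activating kinase, and CKS2, a small CDK-binding subunit. MNAT1 was at 23.9, 51.9 and 35.7 CPM in DTC and 26.6, 24.6 and 20.3 in DTEC, so its groups overlapped. CKS2 was at 40.6, 101 and 69.6 CPM in DTC and 34.5, 39.6 and 37.0 in DTEC. Of 11 genes of cyclin degradation, 0 were higher and 9 lower in DTC (1 higher at an unadjusted p under 0.05 and 1 by DESeq2), and 1 was higher (FBXO4, an F-box protein, 5.73 against 2.75 CPM) and 7 were lower in DTEC. CDC20, an activator of the anaphase-promoting complex, fell from 359 ± 13.9 to 49.1 ± 1.4 CPM in DTC and was at 131 ± 26.1 in DTEC. CCNF, an F-box cyclin, was at 103 ± 6.54, 23.8 ± 1.75 and 44.9 ± 5.99 CPM in the same groups. Between DTC and DTEC, 6 genes of this list were higher in DTEC and 2 lower, FBXO5 and SKP1, a subunit of SCF ubiquitin ligases. SKP1 was at 162, 376 and 256 CPM in DTC and 115, 138 and 161 in DTEC, a wide spread in DTC.

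The remaining cyclins and CDKs, many of which act in transcription, had shares of calls near those over all tested genes: of 17 tested, 5 were higher (29.4%) and 7 lower (41.2%) in DTC (median -0.19), and 5 were higher (29.4%) and 5 lower (29.4%) in DTEC (median -0.03). CCNG2, an unconventional cyclin linked to withdrawal from the cycle, rose from 7.39 ± 0.925 CPM to 33.8 ± 2.22 in DTC and 51.8 ± 2.59 in DTEC. CDK12, a kinase of RNA polymerase II, fell from 234 ± 6.01 CPM to 73.2 ± 19.7 in DTC and 122 ± 8.29 in DTEC. The other genes higher in DTC were CCNL1, CDK3, CDK14 and CDK18, and those higher in DTEC were CCNI, CDK3, CDK14 and CDK18. CCNC, CCNK, CDK8 and CDK16 were the others lower in DTEC. Between DTC and DTEC, 6 were higher in DTEC and 2 lower (CCNL1 and CDK14). CCNG1, which encodes cyclin G1, rose from 35.0 ± 1.42 to 69.6 ± 7.20 CPM, and CCNY, a cyclin of the cell membrane, from 42.7 ± 6.73 to 80.3 ± 9.73. The lists were not tested against each other.

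**Figure D5:**
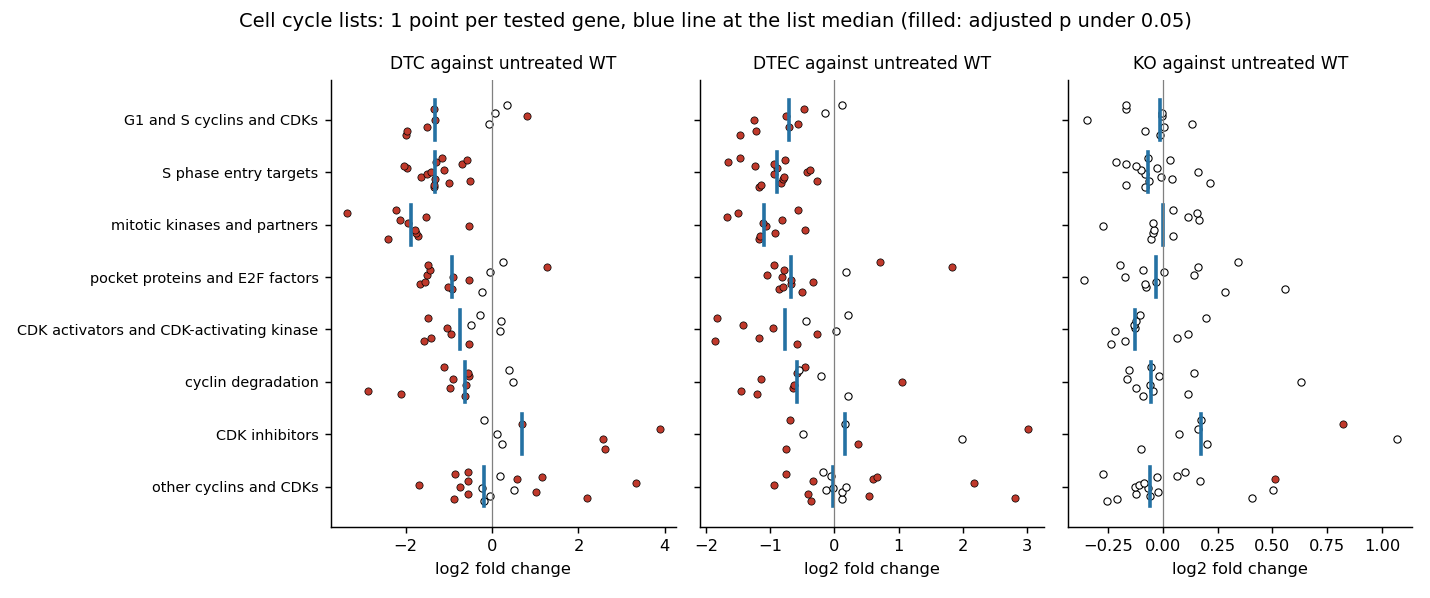
Log2 fold change (horizontal axis, scale differs between panels) of each tested gene in the members and the 7 cell cycle lists, with the median as a blue line and filled points where the adjusted p was under 0.05. S phase and mitotic genes lie left of 0 in DTC and DTEC, CDKN2B lies far to the right in both, and in KO the medians of the 7 lists lie between -0.13 and 0.17.

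In the TDP1 knockout line without drug, 0 of the 9 tested members were called by edgeR, against a background of 4.31% of tested genes called, 2.76% higher and 1.55% lower. That background is 738 genes, which became 321 to 426 with any 1 library left out and 2656 in a fit of the 6 compared libraries alone. At an unadjusted p under 0.05, 0 members were higher and 1 was lower. Over all 17115 tested genes, 1573 were higher and 1274 lower at that threshold, which is the background for the unadjusted counts below. DESeq2 called 1 member. The median log2 fold change was -0.01 over the members and -0.0121 over all tested genes. The member with the widest difference was CCNE1, at 35.8, 37.3 and 34.3 CPM in KO against 47.1, 44.6 and 44.7 in untreated WT. All 3 KO libraries lay below untreated WT. The log2 fold change was -0.35 (95% interval -0.56 to -0.134, adjusted p = 0.0676), and it was called by DESeq2 (-0.337, adjusted p = 0.032) and in the fit of 6 libraries (-0.323, adjusted p = 0.00454). CCND1 (0.01, 95% interval -0.214 to 0.228), CCNA2 (-0.01, -0.202 to 0.179) and CCNB1 (-0.08, -0.316 to 0.15) had intervals that leave out changes as large as those in DTC or DTEC. CDK4 was at 213, 241 and 237 CPM in KO (-0.17, 95% interval -0.373 to 0.0326, adjusted p = 0.398), and CCND3 at 48.9, 51.9 and 51.5 CPM (0.13, adjusted p = 0.581). CCNE2, CDK2 and CDK6 had log2 fold changes of -0.01, -0.01 and -0.17. Of the other lists, CDKN2C was higher in KO (3.69 ± 0.529 against 2.09 ± 0.453 CPM, adjusted p = 0.0453) and so was CDK18 (18.9 ± 1.20 against 13.2 ± 1.29 CPM, adjusted p = 0.0239), and edgeR called 0 genes of the S phase, mitotic, E2F, activator and degradation lists. At an unadjusted p under 0.05 these 5 lists had 3 higher and 2 lower E2F factors and pocket proteins, 1 higher degradation gene and 1 lower S phase gene, and DESeq2 called 1 of their genes, in the E2F list. The other cyclins and CDKs had 2 higher and 2 lower at an unadjusted p under 0.05 and 2 higher by DESeq2, and the CDK inhibitors 1 higher by either.

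Across the 12 libraries the members fell into patterns that can be described by their correlations of log2 CPM, which rest on 4 groups of sister cultures and are given without a test. CCNA2 and CCNB1 had a Pearson r of 0.987, CCND1 and CCNB1 0.964, CCND1 and CDK4 0.944, and CCNE1 and CCNA2 0.946. CCNE1 and CCNE2 had an r of -0.0983, CCND1 and CCND3 0.346, and CDK4 and CDK6 -0.617, so these pairs did not rise and fall together. For CDK6, DTC replicate 1 was at 130 CPM against 75.1 and 71.9 in DTC replicates 2 and 3. How far the correlations of CDK6 rest on that library was not tested. Among 9713 genes with a mean of at least 10 CPM, those most like CCND1 were EIF4H (r = 0.994 over 12 libraries), PUS7 and MCM3AP, and those most like CCNE1 were ETF1 (r = 0.995), UTP15 and HSP90AA1. The genes most like CCNE2 were SLC25A4 (r = 0.977), TM2D2 and TUBA4A, of which TUBA4A, a tubulin, was at 247, 561, 90.0 and 231 CPM in untreated WT, DTC, DTEC and KO. GPRIN1 (r = 0.977), MGAT1 and ABCB8 were most like CCND3, and MTMR1 (r = 0.959), PPFIBP1 and ACBD3 were most like CDK6. CCND2, at 0 throughout, has no correlation.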

How the data were processed

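The data were 1 table of estimated counts per gene for 12 libraries, deposited by the authors without scaling to depth. The submitters' processing notes name RSEM 1.3.1, Bowtie2 2.5.2, DESeq2 1.40.2 and the build GRCh38, without roles. The annotation release and the strand setting of the counting are not given in the sources used here. Library preparation was strand-specific with 101 bp pairs, and all libraries carry 1 batch label, per the labels.

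Estimated counts were rounded and fitted with edgeR 4.0.16 in R 4.3.3: filterByExpr (17115 genes, at least 99.891% of the counts of each library), TMM scaling, 1 mean per group over all 12 libraries, robust quasi-likelihood F tests and Benjamini-Hochberg adjustment. The common biological coefficient of variation was 14.6%. Total counts bound the precision, and without molecular identifiers the 3-count limit covers counting error only. Symbols were matched for 42343 of 62754 identifiers, and coordinates and exon lengths came from GENCODE 29 by identifier. Promoters came from RefSeq. Correlations used log2(CPM + 1).

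The members and lists were chosen with earlier results of these data known. All members were named, with the 2 called genes of each list with the largest change at a mean of 10 CPM or more, and the 3 genes most correlated with CCND1, CCND3, CCNE1, CCNE2 and CDK6. Genes named because their count was 5 or fewer were chosen after their values were seen. Alternatives were other scalings, filters and tools (DESeq2 1.42.0), only the 6 compared libraries, a replicate block and leaving out each library. The length of the longest coding transcript was an alternative chosen after seeing the data. The DTC fit was also run on simulated counts in which only a small part of the genes changed, unlike in the data. That run therefore cannot test the scaling between groups.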

Additional observations from a re-analysis of the deposited data

Results flagged for a closer look

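For 6 members the level in DTEC (28 days) differed from that in DTC (7 days) by edgeR's quasi-likelihood test, which leaves out the shared untreated libraries. The untreated libraries carry no day, so time in erlotinib and time in culture cannot be told apart here. The log2 difference was 0.81 for CCND1, 0.53 for CCNA2, 0.75 for CCNB1 and 0.85 for CDK4, with all 3 DTEC libraries above all 3 DTC libraries in each case. It was -0.48 for CCND3 and -1.55 for CCNE2, with all 3 DTEC libraries below all 3 DTC libraries. Of the 9 tested members, 44.4% were called higher and 22.2% lower in this comparison. Over all tested genes 55.4% were called, 28.8% higher and 26.6% lower, so many genes outside the set also differed. The share of all tested genes without overlap between the 2 groups was not counted. The adjusted p-values ran from 2.32e-07 for CCNE2 to 0.00169 for CCND3. CCNE2 was the member with opposite directions at the 2 times, 0.80 in DTC and -0.75 in DTEC.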

How the results depend on the processing

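Over 504 alternatives for 36 member results, 451 kept the direction and the side of the threshold, 14 newly passed it, 39 reversed and 0 lost a call, so every called member stayed called under every alternative run. The newly called results are given with CDK2, CDK6 and CCNE1 above. The reversed results were all differences that had not passed the test in the main fit. Only CCND3 in DTC with total counts alone passed it after reversal (0.276, adjusted p = 0.0329 by edgeR). That result is counted among the 39 reversed and not among the 14 newly called.

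With total counts alone they were CCND3 in DTC 0.276, CDK2 in DTEC 0.0292, CCNE1 in DTEC against DTC -0.107, and in KO CCNE2 0.065, CCNA2 0.0576 and CDK2 0.0631. With upper quartile scaling they were CCND3 in DTC 0.209, CCNE1 in DTEC against DTC -0.0926, and in KO CCNE2 0.0186, CCNA2 0.0117 and CDK2 0.0171. In KO, CCNE2 and CDK2 were at 0.0047 and 0.00444 with DESeq2 size factors and at 0.00396 and 0.00442 with the DESeq2 test. CCNE2, CCNA2 and CDK2 in KO were at 0.0191, 0.0126 and 0.0186 without a filter, at 0.0178, 0.0114 and 0.0172 with a minimum mean of 10 counts, and at 0.0186, 0.013 and 0.0187 in the fit of 6 libraries. With 1 library left out, CDK6 in DTEC against DTC ran from -0.409 to 0.0835 (above 0 without DTC replicate 1) and CCNE1 there from -0.0247 (without DTC replicate 2) to 0.171. In KO the ranges were -0.0277 to 0.065 for CCND1, -0.0678 to 0.0931 for CCNE2, -0.0137 to 0.028 for CCNA2 and -0.0362 to 0.0487 for CDK2. The cause of these reversals was not tested.

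The number of genes called in KO was 738, and it was 1147 without a filter, 1149 with DESeq2, 2656 in the fit of 6 libraries and 321 to 426 with any 1 library left out, which leaves fewer samples. The count of members called in KO was 1 with DESeq2 and 1 in the fit of 6 libraries, CCNE1 both times. With the longest coding transcript as length, the share of CCND3 among the D cyclins was 15.5% (untreated WT), 33.2% (DTC), 16.8% (DTEC) and 16.7% (KO), beside 7.83%, 18.7%, 8.55% and 8.5%.

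Deviations of same-numbered cultures from their group means had correlations from -0.013 to 0.179, mostly above 0. They were not all over 0.1 in any comparison, so the numbers were not taken as pairs. Values for cultures of different numbers are not given beside them, so a weak pairing is not excluded. With the replicate block the genes called numbered 11775 (DTC), 9255 (DTEC), 9732 (DTEC against DTC) and 887 (KO), and the members called were 6, 7, 6 and 0, as without it. Few counts limit the precision of CDKN1C and NKX2-1, which were at or below 0.5 CPM in every library.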
